A study of Homo sapiens with 12 samples.

Results

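Genes that mark the neuroendocrine state of prostate cancer were followed through RNA-seq of C4.2B cells, a human line that descends from LNCaP prostate cancer cells, is castration-resistant and is of luminal type. The set holds the granins *CHGA* and *CHGB*, the secretogranins *SCG2*, *SCG3* and *SCG5*, the vesicle protein *SYP*, the transcription factors *INSM1* and *FOXA2*, and the neuronal repressor *REST*. *REST* represses neuronal genes and does not itself mark the state, but it is counted below among the 9 markers. All 9 were chosen by gene symbol and all 9 were found among the 58735 genes of the count table. Of these, 8 had at least 1 count in some library and 3 (*REST*, *SYP* and *SCG5*) passed the filter on low counts, against 16646 genes that passed in all.

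The study asked how AKT and EZH2 inhibition, alone and together, change transcription in these cells. There were 4 arms of 3 plates, replicates A, B and C, and therefore 12 polyA libraries. The DMSO arm received vehicle, the AKTi arm received 0.25 uM ipatasertib for 24 hours, the EZH2i arm received 1 uM tazemetostat for 6 days before and then during those 24 hours, and the combination arm received both agents on the same schedule. All arms, DMSO included, spent the last 24 hours in charcoal-stripped serum, which is low in androgen. C4.2B is a single line and the plates of an arm were seeded from treated cultures of it, so p-values measure only the spread between plates. Libraries held between 14133755 and 22276417 counts, and the limit that 3 counts set in a single library ran from 0.138 to 0.221 CPM, the usual count scaled to a common library size, here with TMM, edgeR's trimmed-mean correction for composition.

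Neuroendocrine prostate cancer is a lineage state in which tumor cells lose luminal identity and take on secretory and neuronal features. Its cells store peptides in dense-core granules built from granins, and carry the synaptic vesicle protein synaptophysin, encoded by *SYP*. INSM1 and FOXA2 are transcription factors of neuroendocrine tumors, while REST binds the RE1 element of neuronal genes and recruits corepressors that keep them off outside neurons. EZH2 deposits the repressive mark H3K27me3, and both EZH2 and AKT signaling have been tied to lineage state in this disease.

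Markers of luminal cells were checked first. In the DMSO arm *KLK3*, which encodes prostate-specific antigen, stood at 1370.4 CPM and the luminal keratin *KRT8* at 259 CPM, whereas the basal keratin *KRT5* and the muscle gene *DES* had no count in any library. Among 8 markers of other cell types, 3 were silent and 3 were tested, and the DMSO libraries summed to between 5.08 and 8.07 CPM over the list, the AKTi libraries to between 4.84 and 6.67, the EZH2i libraries to between 17.5 and 20.5 and the combination libraries to between 11.3 and 16.1. The collagen gene *COL1A1* made up most of that sum and rose by a log2 fold change of 1.59 in EZH2i and 1.10 in the combination (edgeR quasi-likelihood test, adjusted p = 1.6e-10 and 4.6e-07), and *COL3A1* rose by 1.29 in EZH2i (adjusted p = 0.0083). The part of other cells in the results below was not tested, and in bulk RNA fewer cells of a type and less RNA per cell cannot be told apart.

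Of the 9 markers, 3 stayed silent in every arm, where silent means that no library held more than 3 counts. *CHGB*, the granin that is stored beside chromogranin A, had 0 counts in all 12 libraries. *INSM1* had 1 count in all, in EZH2i replicate B, and *FOXA2* had 1 count in all, in EZH2i replicate A. *FOXA2* shares 3257 bases with AL121722.1, a protein-coding gene on the same strand with 0 counts, and reads that fall on both can be left out of per-gene counts, so its value is uncertain. These are 3 of the 9 genes, *REST* included, or 33.3%, and 22.3% of the 19951 protein-coding genes in the table were silent by the same rule. Pooled over the 3 libraries of an arm, 3 counts would give 0.0608 CPM for DMSO, 0.0705 CPM for AKTi, 0.0557 CPM for EZH2i and 0.0558 CPM for the combination. For the 0 counts of *CHGB* the exact 95% Poisson interval reached 0.0748 CPM for DMSO, 0.0867 CPM for AKTi, 0.0684 CPM for EZH2i and 0.0687 CPM for the combination. The single counts of *INSM1* and *FOXA2* are each 0.0186 CPM pooled over EZH2i, with an exact 95% Poisson interval up to 0.103 CPM. These limits, and the Poisson intervals of pooled counts below, cover counting error only and not the spread between libraries, which over all genes was larger than counting error.

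**Figure D1:**
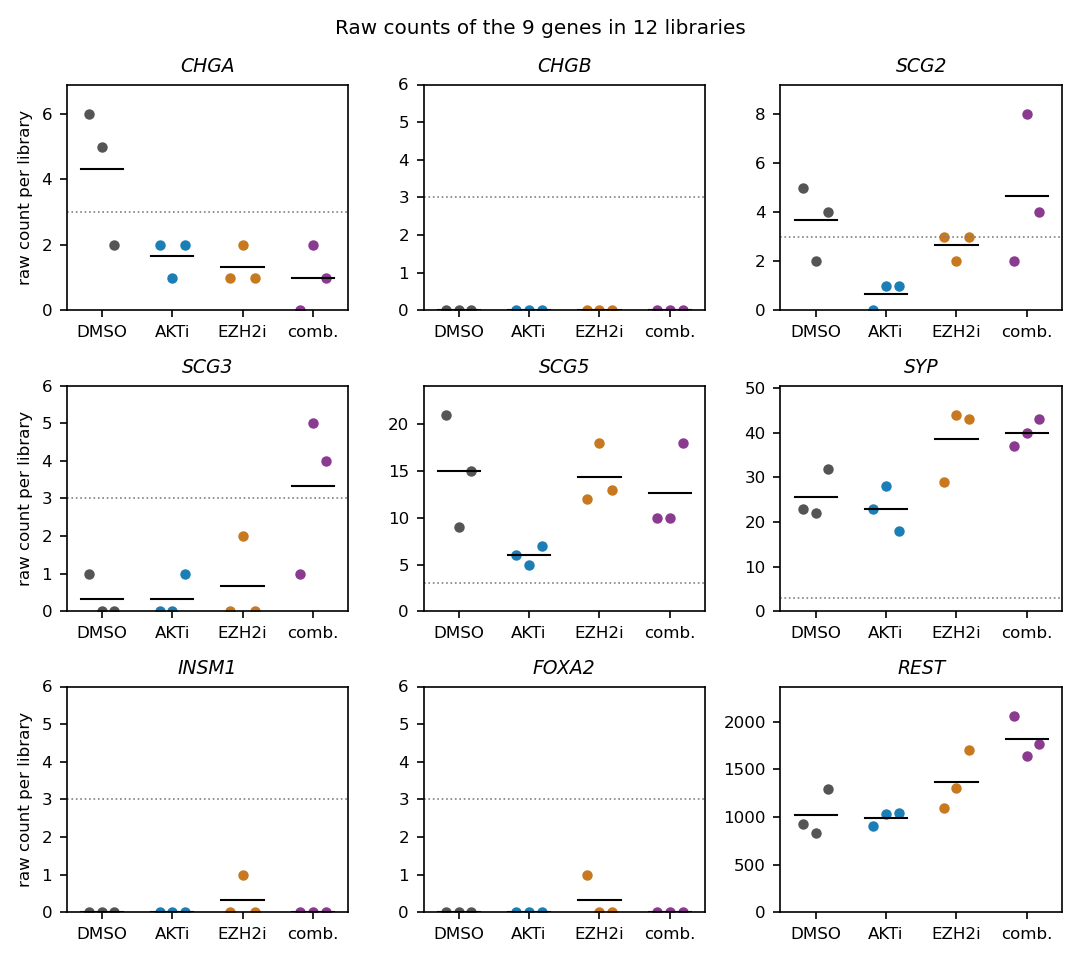
Raw counts per library (y axis, linear, a separate scale for each gene) of the 9 genes in DMSO, AKTi, EZH2i and combination (comb.), 3 libraries each, shown as points with the arm mean as a bar and, for the 8 low genes, 3 counts as a dotted line. *CHGB*, *INSM1* and *FOXA2* lie at 0 or 1 count throughout, *CHGA*, *SCG2* and *SCG3* never pass 8 counts, and *REST* lies between 836 and 2060 counts.

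*CHGA* encodes chromogranin A, the granule protein most used to identify neuroendocrine cells. It held 6, 5 and 2 counts in the DMSO libraries, 2, 1 and 2 in AKTi, 1, 2 and 1 in EZH2i and 0, 2 and 1 in the combination. The highest values were in DMSO, and replicate C of that arm overlapped the treated libraries. The mean was 0.289 ± 0.168 CPM (SD, n = 3) in DMSO and 0.0585 ± 0.0576 CPM (SD, n = 3) in the combination. The ratio of the pooled counts of combination (3 counts) to DMSO (13 counts) was 0.212, with a 95% Poisson interval from 0.0387 to 0.771, and that of EZH2i (4 counts) to DMSO was 0.282, from 0.0669 to 0.911. Across libraries neither difference passed: the exact two-sided permutation test gave p = 0.2 for both, where 3 against 3 libraries cannot go below 0.1, and 0.375 after adjustment over the 15 tests made on *CHGA*, *SCG2* and *SCG3*.

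*SCG2* and *SCG3* encode secretogranins that are sorted into dense-core granules. *SCG2* held 5, 2 and 4 counts in DMSO, 0, 1 and 1 in AKTi, 3, 2 and 3 in EZH2i and 2, 8 and 4 in the combination. The AKTi libraries lay below all libraries of the other arms, and the other 3 arms overlapped. Pooled AKTi counts were 0.211 of DMSO (2 against 11 counts, 95% Poisson interval 0.0227 to 0.966), and those of the combination were 5.54 times AKTi (14 against 2, interval 1.27 to 50.2), each with an exact permutation p = 0.1, the smallest possible, and 0.375 after adjustment. *SCG3* held 1, 0 and 0 counts in DMSO, 0, 0 and 1 in AKTi, 0, 2 and 0 in EZH2i and 1, 5 and 4 in the combination. Its highest libraries were combination B and C, but replicate A of that arm was no higher than DMSO replicate A. The pooled ratio of combination to DMSO was 9.18 (10 against 1 counts, interval 1.31 to 398), and the exact permutation p was 0.2, or 0.375 after adjustment. When all 34381 genes with a count were fitted with edgeR without a filter, none of *CHGA*, *SCG2*, *SCG3*, *INSM1* and *FOXA2* was called in any comparison.

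Sequences that match the RE1 element lie near the start of 2 of these low granin genes. They are printed because REST, the factor that binds this element, was well expressed and was the gene called. The letters searched were TTCAGCACC followed after 2 bases (the canonical spacing) or 8 bases (the expanded spacing) by GGACAG, on both strands of hg38, within 1000 bases of the gene starts in the count table. Capitals mark the RE1 letters searched, each sequence is read 5′ to 3′ on the strand of its match, and the window was set after the *CHGA* match had been seen.
CHGA, canonical spacing: TTCAGCACCgcGGACAG
SCG3, expanded spacing: TTCAGCACCcacagggcGGACAG
SYT4, canonical spacing: TTCAGCACCtcGGACAG
GRIN1, canonical spacing: TTCAGCACCgcGGACAG

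The *CHGA* match lies at chr14:92923523-92923539 on the + strand, 443 bases after the gene start, in an intron of all 4 *CHGA* transcripts that span it in GENCODE. The *SCG3* match lies at chr15:51681511-51681533 on the + strand, 158 bases after the gene start, in the 5′ untranslated part of the first exon. None of the other 7 markers had either match. Over all 19951 protein-coding genes, 24 (0.12%) had the canonical match and 7 (0.0351%) the expanded one. Of 25 genes known as REST targets, most of them neuronal, 5 had the canonical match (*CHRNB2*, *GRIN1*, *SNAP25*, *SYN1* and *SYT4*) and 2 the expanded one (*CPLX1* and *UNC13A*). The *SYT4* match, at chr18:43277297-43277313 on the - strand, and the *GRIN1* match, at chr9:137139260-137139276 on the + strand, lie in 5′ untranslated exon sequence. A match describes letters and is no proof of a bound site. RefSeq promoter windows (GRCh38.p14, 250 bases before to 50 after the start) were at hand for 5 of the 9 markers, *CHGA*, *REST*, *SCG3*, *SCG5* and *SYP*, and of these the *SCG3* window alone held TTCAGCACC, against 0.376% of 35116 windows.

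*SYP*, the synaptophysin gene, was expressed at a low level in every library and its change did not pass the test. It held 23, 22 and 32 counts in DMSO, 23, 28 and 18 in AKTi, 29, 44 and 43 in EZH2i and 37, 40 and 43 in the combination. Scaled for depth, the DMSO mean was 1.57 ± 0.0473 CPM and the AKTi mean 1.62 ± 0.356 CPM, while EZH2i reached 2.16 ± 0.354 CPM and the combination 2.26 ± 0.362 CPM (SD, n = 3 each). On this CPM scale the EZH2i and combination libraries lay above all DMSO libraries. The log2 fold change was 0.46 (SE 0.30) for EZH2i and 0.52 (SE 0.30) for the combination against DMSO, with adjusted p = 0.178 and 0.114 (edgeR). The combination was called when libraries were scaled by size alone (log2 0.72, adjusted p = 0.0299), by the upper quartile (0.71, 0.0322) or when only genes with 10 counts in every library were kept (0.59, 0.0475). Over 13 alternatives its adjusted p ran from 0.0299 to 0.276. Combination and EZH2i had a pooled count ratio of 1.04 (95% Poisson interval 0.797 to 1.35).

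*SCG5* encodes 7B2, the chaperone of the prohormone convertase PC2, whose own gene *PCSK2* had 0 counts in all libraries. *SCG5* held 21, 9 and 15 counts in DMSO, 6, 5 and 7 in AKTi, 12, 18 and 13 in EZH2i and 10, 10 and 18 in the combination. The AKTi libraries were the lowest and overlapped no other arm. The AKTi mean was 0.423 ± 0.0687 CPM, against 0.931 ± 0.417 CPM in DMSO, 0.816 ± 0.227 CPM in EZH2i and 0.722 ± 0.316 CPM with both agents (SD, n = 3 each). The log2 difference between AKTi and DMSO was -1.11 (SE 0.53, adjusted p = 0.0894, edgeR) and was called in none of its 11 alternatives, in which the adjusted p ran from 0.0735 to 0.402. The combination lay 0.75 above AKTi on the log2 scale (SE 0.54, adjusted p = 0.228), and its log2 difference from DMSO was -0.37 (SE 0.47, adjusted p = 0.494).

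Of the 3 genes that could be tested in the fit over all genes, the markers *SYP* and *SCG5* were not called. *REST*, the repressor of the set, was called and rose. The DMSO libraries held 62.4, 61.6 and 61.9 CPM, the AKTi libraries 65.1, 72.4 and 72.6, the EZH2i libraries 73.3, 76.2 and 78.1, and the combination libraries 104, 94.1 and 106. Every treated library was above every DMSO library, and the combination overlapped no other arm. From a DMSO mean of 62.0 ± 0.405 CPM the level went to 70.1 ± 4.29 CPM with AKTi, 75.9 ± 2.42 CPM with EZH2i and 101.5 ± 6.51 CPM with both (SD, n = 3 each).

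In edgeR's fit over all genes *REST* rose by a log2 fold change of 0.29 in EZH2i against DMSO (SE 0.065, adjusted p = 1.6e-04) and by 0.71 in the combination (SE 0.064, adjusted p = 1.8e-12), which is 1.64-fold. The combination was also higher than AKTi by 0.54 (SE 0.064, adjusted p = 3.0e-09) and higher than EZH2i by 0.42 (SE 0.063, adjusted p = 7.0e-07). These 4 calls held under all 13 alternatives of each. AKTi against DMSO gave 0.18 (SE 0.066, adjusted p = 0.0284), a call that was lost without DMSO replicate A (adjusted p = 0.0571), B (0.135) or C (0.0582), without AKTi replicate B (0.207) or C (0.208), and with no filter on low counts (0.1002). The comparisons against DMSO share its 3 libraries.

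**Figure D2:**
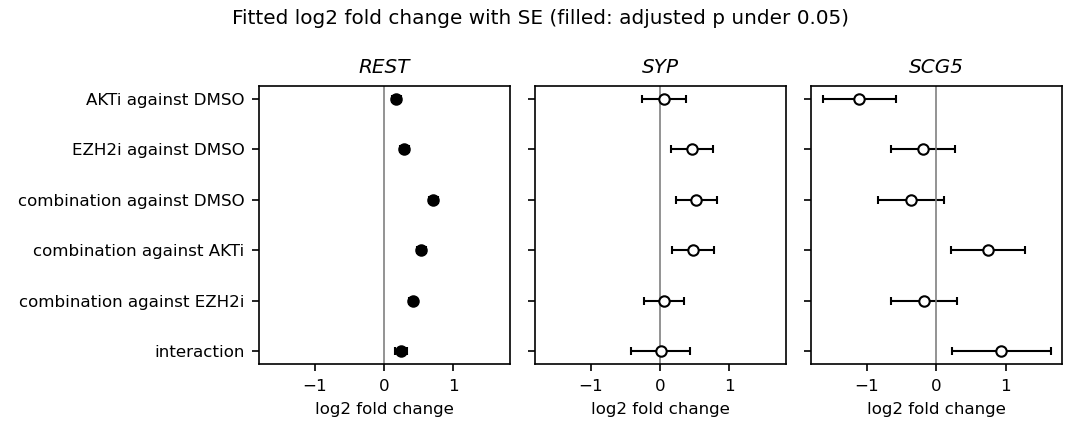
Log2 fold change (x axis) with its SE for *REST*, *SYP* and *SCG5* in 5 comparisons and the interaction (y axis), from the fit across 16646 genes, with filled points for an adjusted p under 0.05. *REST* is filled and above 0 throughout, up to 0.71 for the combination against DMSO, while no point of *SYP* or *SCG5* is filled.

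The interaction asks whether AKTi changed expression by the same log2 amount with EZH2i as without it. For *REST* the change was larger by 0.24 with EZH2i (SE 0.091, adjusted p = 0.0424, edgeR). This call was lost without DMSO replicate A (adjusted p = 0.0822) or C (0.0667), AKTi replicate A (0.227), EZH2i replicate A (0.135) or B (0.0611), or combination replicate A (0.105) or C (0.121), and with DESeq2 (0.0501) or no filter (0.175). *SYP* gave 0.01 (SE 0.43, adjusted p = 0.995) and *SCG5* 0.94 (SE 0.71, adjusted p = 0.358).

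The call of *REST* alone among the 9 genes must be read against how much of the transcriptome moved. Of 16646 genes tested, 42.5% were called in AKTi against DMSO (20.6% higher and 21.9% lower), 64.1% in EZH2i (32.6% higher and 31.5% lower) and 73.2% in the combination (38.0% higher and 35.2% lower). The combination differed from AKTi in 64.2% of genes and from EZH2i in 46.7%, and 28.2% passed the interaction test. *REST* alone was called in each, 1 of the 3 markers tested. The median log2 fold change of all genes was 0.03 for EZH2i and 0.06 for the combination, where *REST* lay above it at 0.71. When libraries were scaled by size alone the medians were 0.17 and 0.26, and *REST* in the combination stood at 0.91, again above the median. That scaling gave 6630 higher and 4193 lower genes for EZH2i, against 5421 and 5249 with TMM, and 6544 and 4330 for the combination against AKTi, where TMM gave 5344 and 5343. It also turned the balance for AKTi against DMSO, from 3429 higher and 3644 lower to 4112 and 3023, and for the combination against EZH2i, from 3506 and 4275 to 4069 and 3687, and gave 7574 and 4749 for the combination against DMSO in place of 6320 and 5866.

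*REST* overlaps *NOA1*, a mitochondrial GTPase gene on the opposite strand, by 3309 bases (the whole *REST* gene spans chr4:56907876-56966678), and whether counting used strand is not given in the sources used here. The level of *NOA1* was 67.0 ± 5.24 CPM in DMSO, 52.7 ± 1.69 CPM with EZH2i and 62.3 ± 3.0 CPM with both agents (SD, n = 3). Its log2 difference from DMSO was -0.35 in EZH2i (adjusted p = 4.2e-05, edgeR) and -0.10 in the combination (adjusted p = 0.170). In AKTi against DMSO both genes rose by 0.18, and in the combination against EZH2i *NOA1* rose by 0.24 (adjusted p = 0.00391) and *REST* by 0.42. How far shared reads enter these values was not tested. Antisense genes that overlap *SCG5*, *SYP* and *SCG3* held at most 17 counts over all libraries.

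Levels between genes were compared per length, as RPKM, which divides CPM by the gene's length in kilobases. In DMSO *REST* stood at 7.76 ± 0.0508 RPKM, above 73.5% of protein-coding genes, and in the combination at 12.7 ± 0.815. *SCG5* followed at 0.424 ± 0.19, *SYP* at 0.3004 ± 0.00907, *CHGA* at 0.0932 ± 0.0543, *SCG2* at 0.0828 ± 0.0363 and *SCG3* at 0.00676 ± 0.0117 (SD, n = 3 each). *SCG5* and *SYP* did not differ beyond their spread, nor did *CHGA* and *SCG2*. *FOXA2* had no count in DMSO, whereas *FOXA1*, the related pioneer factor of luminal cells, stood at 76.3 RPKM there and at 105.6 RPKM in the combination.

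**Figure D3:**
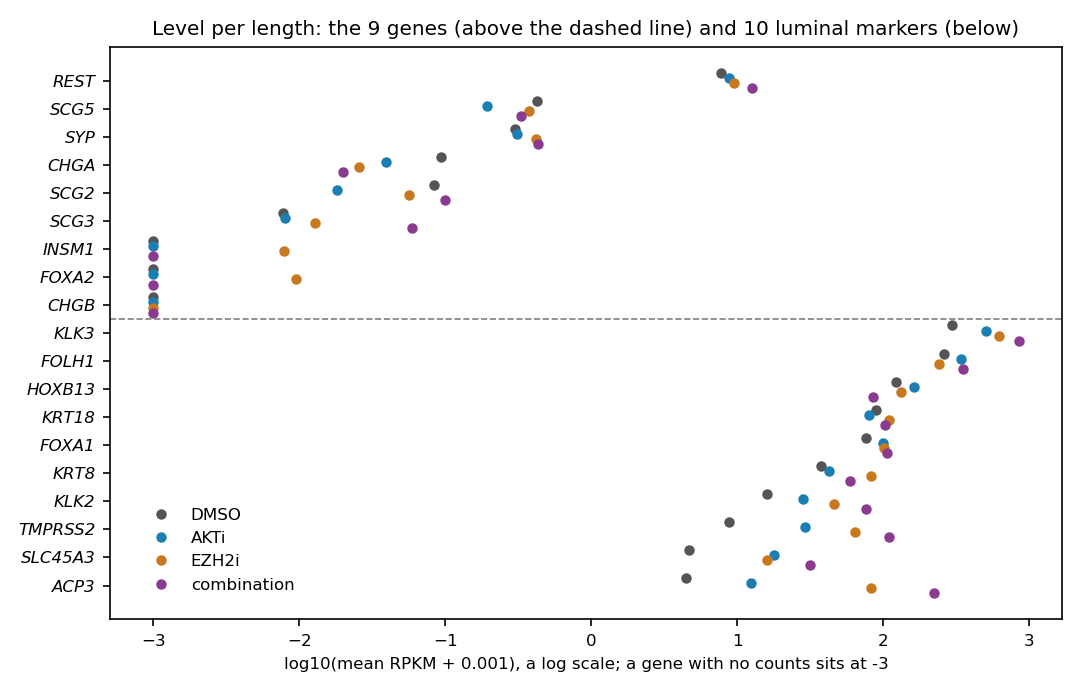
Mean level per length in each arm (n = 3 libraries; x axis, log10 of RPKM + 0.001) for the 9 markers above the dashed line and 10 of the 12 luminal genes below it (y axis). *REST*, at 7.76 RPKM in DMSO, sits among the lowest of the luminal genes, and the other 8 markers lie below 1 RPKM in every arm.

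The genes whose log2 CPM followed each tested marker most closely over the 12 libraries, out of 13082 protein-coding genes searched, are a description, since libraries of 1 arm share their treatment. For *REST* they were *ASH1L* (r = 0.984), *RPS6KC1* (r = 0.981) and *FOXP1* (r = 0.981). For *SYP* they were *TMEM173* (r = 0.914), *PSMB9* and *TRAF3IP3* (both r = 0.908). For *SCG5* they were *ST8SIA5* (r = 0.856), *CNEP1R1* (r = 0.825) and *ZNF302* (r = 0.824). Between the markers r was 0.64 for *SYP* and *REST*, 0.27 for *SYP* and *SCG5* and -0.02 for *SCG5* and *REST*.

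Other genes of the neuroendocrine program moved in both directions around these markers. Of 20 neuroendocrine transcription factors 5 were silent and 10 were tested, of which 7 rose and 2 fell in EZH2i and likewise in the combination, with 3 and 1 in AKTi. Over all genes tested, 32.6% were higher and 31.5% lower in EZH2i, 38.0% and 35.2% in the combination, and 20.6% and 21.9% in AKTi. The median log2 fold change of the 10 factors tested was 1.12 in EZH2i and 1.40 in the combination, where all genes tested had medians of 0.03 and 0.06. Setting genes with a DMSO mean of at most 3 counts to their lower bound left these medians, and those of the other lists below, as they were. That step reset only genes at that floor and kept others that passed the filter through the treated arms. It therefore does not show that the medians are free of the filter. *POU2F3*, the tuft-cell factor, rose by 3.03 (SE 0.34) and 3.67 (SE 0.33), from 0.549 CPM in DMSO to 6.43 CPM in the combination. *LHX2* rose by 1.64 in EZH2i and *FEV* by 1.81 in the combination. *PROX1*, 1 of the 7, passed the filter only through the treated arms and so had to differ: 1 count in DMSO stood against 30 in EZH2i and 66 in the combination, a pooled ratio of 27.5 (95% Poisson interval 4.56 to 1120.0) and 60.6 (10.5 to 2429). *POU2F3* and *NKX2-2*, also among the 7, averaged 8 and 5 counts in DMSO, under the filter's minimum count of 10. They too passed the filter through the treated arms, which favored a rise. *HES6* fell by 0.48 and 0.50, and *ONECUT2* fell by 0.37 and 0.29. With libraries scaled by size alone or by the upper quartile, 7 factors rose and 1 fell in EZH2i and in the combination. In AKTi 3 rose and 0 fell under these scalings, and 1 call was lost in each of the 3 comparisons. *NEUROD1* had 0 counts, and *POU3F2*, which encodes BRN2, had log2 differences of 0.10 in EZH2i and -0.99 in the combination that did not pass (adjusted p = 0.88 and 0.12).

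Among 24 granule and vesicle genes other than the markers, 6 were silent and 14 were tested, of which 9 rose and 2 fell in EZH2i, 11 rose and 2 fell in the combination, and 9 and 2 did so in AKTi. Over all genes tested, 32.6% were higher in EZH2i, 38.0% in the combination and 20.6% in AKTi. The median of the 14 was 0.62 and 1.13 in the arms with EZH2i. *SYT4*, a synaptotagmin of dense-core vesicles, rose by 4.12 (SE 0.06) in EZH2i and 4.10 (SE 0.06) in the combination, from 44.7 CPM in DMSO to 779 and 766 CPM. *PCSK1N*, an inhibitor of prohormone convertase, rose by 2.51 and 2.29, and *UNC13A*, a vesicle priming factor, by 1.66 and 1.86. *UNC13A*, counted among the risers of each treated arm, averaged 6.67 counts in DMSO, under the filter's minimum count given above. It passed the filter through the treated arms, which favored a rise. *RAB3A*, the small GTPase of synaptic vesicles, fell by 1.44 and 2.44, and *VGF*, a granin-like precursor, fell by 1.30 and 1.23.

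Of 24 further neuroendocrine markers 7 were silent and 11 were tested, with 6 higher and 2 lower in EZH2i, 6 and 3 in the combination and 2 and 1 in AKTi, and with medians of 0.38 and 0.84 in the arms with EZH2i. Over all genes tested, 32.6% were higher in EZH2i, 38.0% in the combination and 20.6% in AKTi. Of the further markers higher with EZH2i and with both agents, *NTS* and *L1CAM* averaged at most 3 counts in DMSO and passed the filter through the treated arms, so they had to differ. *NTS*, the neurotensin gene, had 1 count in DMSO and 3 in AKTi, against 1950 in EZH2i and 908 in the combination. The pooled ratio to DMSO was 1784 (95% Poisson interval 320 to 70518) in EZH2i and 833.5 (149 to 32957) in the combination. *L1CAM*, a neural adhesion molecule with 7 counts in DMSO, reached 126 and 102 counts, and *TUBB3*, neuronal tubulin, rose by 2.54 and 2.41. *TUBB3* averaged 6 counts in DMSO and 7.33 in AKTi, under the filter's minimum count given above. It passed the filter through the arms with EZH2i, which favored a rise there. *ENO2*, which encodes neuron-specific enolase, rose by 0.88 and 0.84. *GAL*, the galanin gene, fell by 1.45 and 2.64, *DLL3*, a Notch ligand used as a drug target in neuroendocrine cancer, fell by 0.88 and 1.13, and *PEG10* fell by 0.69 in the combination. *NCAM1*, or CD56, held 5 counts in DMSO, 16 in EZH2i and 24 in the combination and was not tested.

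Genes that act with or upstream of REST split. All 21 were above the silent limit and 20 were tested, of which 8 rose and 7 fell in EZH2i, 7 rose and 9 fell in the combination, and 9 and 2 did so in AKTi. Their medians were 0.02 and 0.03 in the arms with EZH2i. The CoREST paralog *RCOR2* rose by 1.66 and 1.74, the LSD1 complex reader *PHF21A* by 0.87 and 1.29, and the phosphatase *CTDSP2* by 0.94 in the combination. *RCOR2* averaged 7.33 counts in DMSO and 6.67 in AKTi, under the filter's minimum count of 10. It passed the filter through the arms with EZH2i, which favored a rise there. *HDAC1* fell by 0.45 and 0.81, *HDAC2* fell by 0.38 and 0.68, and *CTDSPL* fell by 0.45 and 0.80. *SRRM4*, the splicing factor that makes the neural form of *REST* mRNA, reached at most 4 counts, and these gene-level counts do not separate *REST* isoforms. Over all genes tested 64.1% were called in EZH2i and 73.2% in the combination, so the calls of this list in those arms lay near the background. In AKTi, where 9 of the 20 rose and 2 fell, 20.6% of all genes tested were higher and 21.9% lower. Under scaling by library size alone the split was 10 higher and 4 lower in EZH2i, with 3 calls lost, and 11 and 7 in the combination, with 2 lost and 1 called gene changing sign.

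Of the 25 genes known as REST targets, most of them neuronal, 5 were silent and 13 were tested, of which 10 rose and 1 fell in EZH2i and again in the combination, and 9 rose and 0 fell in AKTi. Over all genes tested, 32.6% were higher in EZH2i, 38.0% in the combination and 20.6% in AKTi. Of the 13, *SYT4*, *UNC13A*, *VGF* and *L1CAM* also stand in the lists above. The medians of the 13 were 1.66 and 1.35 in the arms with EZH2i. The first is the value of *UNC13A*, whose rise the filter favored, as given below. *L1CAM* and *SCN2A*, a sodium channel gene, are among the 10 that rose but averaged at most 3 counts in DMSO and passed the filter through the treated arms, so they had to differ. *UNC13A*, *AP3B2* and, in EZH2i, *CHRM4* are also among those that rose. They averaged 6.67, 8.67 and 4 counts in DMSO, under the filter's minimum count of 10. They too passed the filter through the treated arms, which favored a rise. *SCN2A* held 9 counts in DMSO, 63 in EZH2i and 53 in the combination. *SYT4* rose as given above and *AP3B2* by 3.25 in the combination, while *VGF* was the gene that fell. Of the 5 targets with the canonical match, *SYT4* and *GRIN1* (1.96 and 1.17) rose, and *SNAP25* with 0 counts, *SYN1* with at most 3 and *CHRNB2* with at most 14 were not tested. *CHGA*, with the same match letters as *GRIN1*, stayed at the levels given above.

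**Figure D4:**
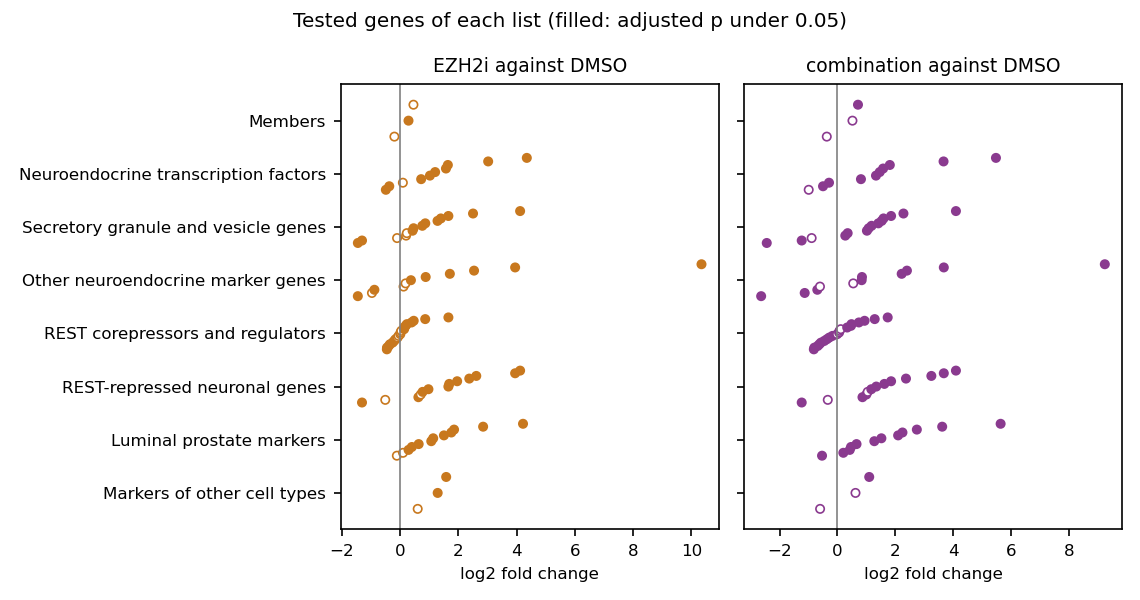
Log2 fold change (x axis) of each tested gene, 1 point per gene, in the 3 tested markers (Members) and 7 related lists (y axis), for EZH2i and combination against DMSO, filled where the adjusted p was under 0.05. Points spread to both sides of 0 in most lists, *NTS* is the far point, fitted at 10.35 and 9.25 from 1 count in DMSO, and 10 of 13 REST-repressed genes are filled to the right of 0 in both panels. Some of those 10, and some risers of other lists, passed the filter through the treated arms, which favored a rise.

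Most luminal genes tested were higher in the treated arms. Of 12 luminal markers, all tested, 10 rose and 0 fell in EZH2i, 11 rose and 1 fell in the combination and 11 and 1 in AKTi, with medians of 1.11, 1.40 and 0.79. Over all genes tested, 32.6% were higher in EZH2i, 38.0% in the combination and 20.6% in AKTi. *ACP3*, prostatic acid phosphatase, rose by 4.22 in EZH2i and 5.65 in the combination, *TMPRSS2* by 2.85 and 3.62, and *SLC45A3* by 2.75 in the combination. *FOXA1* rose by 0.41 and 0.47. *HOXB13* fell by 0.53 in the combination.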

How the data were processed

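Per the labels and the study's methods, the authors aligned reads to hg38 with STAR and counted them per gene with HTSeq, and the deposited counts are whole numbers. The deposited signal values, the authors' DESeq2-normalized counts, equalled count divided by a library factor within a relative tolerance of 0.001 for all 56994 names checked. Strand setting and sequencing site per library are not given in the sources used here, so no sequencing batch could be modelled. Counts were fitted in R 4.3.3 with edgeR 4.0.16 (filterByExpr with minimum count 10 and minimum total 15, TMM scaling, quasi-likelihood test, 1 mean per arm over 12 libraries, Benjamini-Hochberg adjustment over 16646 genes, threshold 0.05). The fit was tested on simulated data in which 194 of 16152 genes tested changed 2-fold in the combination. It recovered 85.6% of them with 7 false calls. Far fewer genes changed there than in these data, so the simulation does not test the scaling used here. Markers and the 7 lists were chosen with earlier results of these data known. Text names the 9 markers, 3 like-patterned genes per tested marker, the 3 highest and 3 lowest called genes per list in EZH2i and combination against DMSO, and *NEUROD1*, *POU3F2*, *ENO2*, *NCAM1*, *FOXA1* and *SRRM4*. *KLK3*, *KRT8*, *KRT5*, *DES*, *PCSK2*, *NOA1* and genes with an RE1 match were added after their values were seen. Some genes that the rule names are not reported here. RE1 letters were searched in hg38 and placed with GENCODE v44, whose marker gene starts differed from the deposited ones by 0 to 139 bases. Alternatives were DESeq2 1.42.0, other scalings and filters, a replicate block, only the compared libraries, and leaving out each library. Replicate letters did not pair the samples (correlation of deviations -0.058 to 0.069 over 18 same-letter pairs). Replicates of an arm differed beyond sampling noise in all 12 pairs (chi-square per gene 2.53 to 7.50).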

Additional observations from a re-analysis of the deposited data

Results flagged for a closer look

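*REST* was flagged because the effect of AKTi on it differed between cells with and without EZH2i by the interaction test: the log2 effect was larger by 0.24 with EZH2i (SE 0.091, edgeR adjusted p = 0.0424). Without EZH2i, AKTi changed *REST* by 0.18, from 62.0 to 70.1 CPM, and with EZH2i by 0.42, from 75.9 to 101.5 CPM. The difference passed in 9 of 18 alternatives, in which its adjusted p ran from 0.0174 to 0.227. Of all genes tested, 28.2% passed the same test, and the median interaction over all genes was -0.05.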

How the results depend on the processing

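*REST* kept its direction under all alternatives run, and its calls for EZH2i and combination against DMSO and for the combination against each single agent did not change. The number of markers called moved from 1 to 2 (with *SYP*) for the combination against DMSO with library size only, upper quartile scaling or at least 10 counts in every library, and from 1 to 0 for AKTi against DMSO with every gene with a count and for the interaction with that setting or DESeq2. Leaving out each library gave 0 to 1 markers called for AKTi against DMSO and for the interaction. Silent markers numbered 3 in the report, 1 when any count ended silence, and 6 when 10 counts were allowed or the filter was used. The *SYP* interaction was -0.016 with every gene kept. Leave-one-out ranges that crossed 0, all without a call, were -0.12 to 0.20 for the *SYP* interaction, -0.13 to 0.19 for *SYP* in AKTi against DMSO, -0.053 to 0.19 for *SYP* in combination against EZH2i, -0.42 to 0.22 for *SCG5* in EZH2i against DMSO, -0.77 to 0.036 for *SCG5* in combination against DMSO and -0.58 to 0.047 for *SCG5* in combination against EZH2i. The causes were not tested. A replicate block on the letters, which do not pair the samples (6 of 12 libraries correlated best with their own letter), changed no marker call and gave 12146 genes called for the combination against DMSO, where 12186 were called without it. *SCG5* gave no value where 10 counts in every library were required. It also gave none in AKTi against DMSO or combination against AKTi when only the compared libraries were used, where it did not pass the filter. A permutation test of 3 against 3 libraries cannot pass 0.05 for any gene, since its smallest p is 0.1, so those of *CHGA*, *SCG2* and *SCG3* say nothing of stability, and these genes never passed 8 counts in a library.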
